A study of Mus musculus with 20 samples.

Results

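Genes through which the brain takes up, converts and reads thyroid hormone were followed across 20 mouse brain libraries: Slco1c1, Dio2, Dio3, Thra, Thrb, Hr and Klf9. They were picked by name and are 7 of the 23845 genes in the deposited tables. All 7 passed the filter on low counts that left 16063 genes for testing.

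Thyroid hormone reaches the brain mostly as the prohormone thyroxine (T4), which crosses the blood-brain barrier on membrane transporters. Inside the brain, astrocytes and tanycytes turn T4 into the active hormone T3, neurons inactivate both, and T3 binds nuclear receptors that switch target genes on or off. Because the active hormone is made on site, transcript levels of these genes describe the local machinery and not the hormone itself, which was not measured.

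RNA of samples labelled brain was sequenced from mice of strain C57/Bl6J on a normal diet. The series compares controls with mice in which single isoforms of JNK, a stress-activated kinase, were knocked out, and names its groups by codes. There were 3 libraries of J1 lf/lf, 3 of J2 lf/lf, 3 of J17a, 2 of J17b, 3 of J27a, 3 of J27b and 3 of Wild type. J1 and J2 are read here as the genes of JNK1 (Mapk8) and JNK2 (Mapk9), and 7a and 7b as the alternative exons of these genes. Whether a code names the lost or the remaining isoform is not stated in the labels, nor what lf/lf stands for, how old the animals were, or whether each library came from its own animal. P-values therefore measure the spread between these libraries, which may be technical.

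Library totals ran from 21395041 to 33828755 estimated counts. Mapk8 stood at 74.6 and 79.2 CPM in the J17b libraries, against 109 to 140 CPM in Wild type libraries, and Mapk9 at 58.1, 171 and 177 CPM in J2 lf/lf, against 293 to 360 CPM in Wild type (CPM, counts scaled by library total). Mapk9 lay below Wild type in J27b too (274 to 278 CPM). Mapk8 in J1 lf/lf (102 to 122 CPM) and J17a (106 to 116 CPM) overlapped Wild type, as did Mapk9 in J27a (292 to 306 CPM). The samples matched their label, with the neuronal gene Snap25 at 2768.01 to 3678.55 TPM and the thyroid gland gene Tg at no more than 0.16 TPM (TPM, a unit scaled for gene length and library total). Some libraries stood apart. Summed transcripts of anterior pituitary hormones reached 3089 CPM in J1 lf/lf replicate 3, 650 CPM in J27a replicate 3 and 2061 CPM in Wild type replicate 2, and at most 102 CPM elsewhere. Wild type replicate 3 differed from the other Wild type libraries by a chi-square per gene of 53.9 and 65.3, against 5.56 to 37.5 in all other pairs of replicates. Its forebrain glutamatergic markers summed to 2460 CPM, against 4071 and 4006 CPM in the other Wild type libraries. The ribosomal precursor Rn45s ran from 17321 to 54698 CPM in the 10 libraries with title numbers above 10, against 3066 to 6718 CPM in the other 10. All J17b, J27a and J27b libraries fall in the set above 10 and all Wild type, J1 lf/lf and J2 lf/lf libraries in the other set. Differences between such groups and that split cannot be told apart.

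Upstream sequence is shown for Dio2 and Slco1c1, chosen after their values were seen as the members with the most unadjusted p-values under 0.05. RefSeq (GRCm38.p6) windows of the 250 bases before the transcript start were found for 5 of the 7 genes. The Dio2 window lies at chr12:90739039-90739288 on the minus strand, and the Slco1c1 window at chr6:141524104-141524353 on the plus strand. Both are printed 5′ to 3′ on the strand of the gene. Capitals mark TGACGTCA, the palindromic cyclic AMP response element, and TATAAA, the TATA box.
Dio2: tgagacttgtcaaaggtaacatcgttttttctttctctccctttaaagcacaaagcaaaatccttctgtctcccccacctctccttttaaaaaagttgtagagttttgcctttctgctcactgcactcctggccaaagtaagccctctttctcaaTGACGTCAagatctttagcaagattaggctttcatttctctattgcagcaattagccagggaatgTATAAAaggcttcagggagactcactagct
Slco1c1: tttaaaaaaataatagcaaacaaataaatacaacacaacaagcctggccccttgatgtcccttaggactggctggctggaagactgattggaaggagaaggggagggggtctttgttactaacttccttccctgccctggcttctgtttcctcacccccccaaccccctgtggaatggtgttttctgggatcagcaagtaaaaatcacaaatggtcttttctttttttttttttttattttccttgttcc
In Dio2 the palindrome spans bases -95 to -88 and the TATA box bases -30 to -25 from the RefSeq start. That start lies outside the Dio2 gene as GENCODE places it, with its edge at chr12:90738438. Of 32851 such windows in the table, 1.55% hold TGACGTCA on either strand and 7.59% hold TATAAA on the gene strand. The other motifs searched were TGACTCA (AP-1), AGGTCA (the half-site of nuclear receptors) and GGGCGG (GC box), each on both strands, which 4.46%, 14% and 32.7% of windows hold. None of the 5 motifs was found in the Slco1c1 window, and none of the last 3 in that of Dio2. A match of letters is a description only.

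The 7 genes spanned a wide range of levels with a fixed top and bottom. Per length, Thra was the most abundant member and Klf9 the next in all 20 libraries, and Dio3 was the lowest in all 20. Thra had a median of 405 TPM (lowest 346.58, highest 498.73) and Klf9 one of 169 TPM (144.22 to 191.78). Slco1c1, Dio2, Hr and Thrb lay close together, with medians of 37.4, 36.9, 29.0 and 22.5 TPM. Their order changed between libraries: 7 orders were seen, and the commonest, Slco1c1 above Dio2 above Hr above Thrb, held in 7 libraries. Dio3 had a median of 2.68 TPM (1.52 to 3.77).

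**Figure D1:**
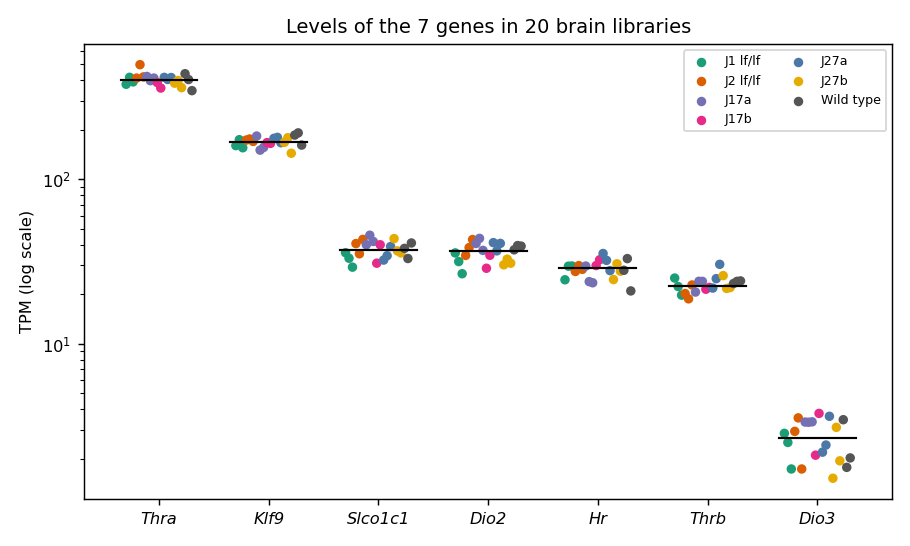
TPM (log axis) of each gene in the 20 libraries; points are libraries coloured and ordered from left to right by group with Wild type last, and lines are medians over all libraries. Thra and Klf9 stay on top and Dio3 at the bottom, while the 4 genes between them overlap.

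Pairs with opposed or parallel roles kept a steep imbalance. The T3-producing Dio2 exceeded the hormone-inactivating Dio3 by 9.16 to 24.9 times in TPM (median 12.9). Thra exceeded Thrb by 13.7 to 26.6 times (median 17.7). These are values per gene, and for Thra they may include the form that cannot bind hormone, which was not measured apart. After a common factor per library was divided out, the ratio of count to TPM of Thra stayed within 99.7% and 100.3% of its mean. That ratio follows the transcript length used for the gene and does not show which forms the sum holds.

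Over the 13 contrasts between groups, none of the 7 members passed the threshold (edgeR quasi-likelihood test, Benjamini-Hochberg adjusted p under 0.05 over 16063 genes). DESeq2 called none of them in these contrasts either. At an unadjusted p under 0.05, 12 of the 91 member tests passed (13.2%), 7 of them for Dio2 and 3 for Slco1c1, against 4.22% to 7.94% of all genes per contrast. The contrasts share libraries, so these tests are not independent. Calls were rare in the whole table too: edgeR called 0 to 5 genes per contrast and DESeq2 1 to 31. The share of all genes called by edgeR was 0.0125% for J1 lf/lf, 0.0249% for J17b and 0.00623% for J2 lf/lf against Wild type, 0% for J17a, J27a and J27b against Wild type and for both pairs of 7a and 7b, and 0.0872% over the 7 groups. The share was 0.0311% for J17b against J1 lf/lf and 0.00623% for each of J17a against J1 lf/lf, J27a and J27b against J2 lf/lf, and the difference of differences. A missed threshold does not show that levels were alike, and intervals are given below.

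Slco1c1 encodes OATP1C1, a T4 transporter of brain capillary endothelium and astrocytes. Its gene lies at chr6:141524368-141570177 (mm10, plus strand). Its CPM values were 44.6, 41.5 and 38.1 in J1 lf/lf, 51.7, 43.7 and 55.7 in J2 lf/lf, and 50.3, 56.99 and 52.8 in J17a. They were 39.5 and 48.5 in J17b, 40.8, 43.4 and 49.4 in J27a, 55.8, 46.8 and 45.1 in J27b, and 48.3, 42.6 and 48.6 in Wild type. All J17a libraries lay above all those of J1 lf/lf, J17b and Wild type, while the other lines overlapped Wild type. The J17a mean was 53.4 ± 3.38 CPM, against 41.4 ± 3.24 CPM in J1 lf/lf (SD, n = 3 each), a log2 difference of 0.37 (SE 0.11, unadjusted p = 0.0028, edgeR adjusted p = 0.485). Against J17b (44.0 ± 6.41 CPM, SD, n = 2) the J17a difference was 0.28 on the log2 scale (95% interval 0.02 to 0.53, edgeR adjusted p = 0.818). Leaving out single libraries moved that value between 0.14 and 0.44.

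The J1 and J2 series went opposite ways for this transporter. J27a averaged 44.5 ± 4.43 CPM and J27b 49.2 ± 5.78 CPM (SD, n = 3 each), a log2 difference of -0.15 (95% interval -0.37 to 0.08, edgeR adjusted p = 0.964). Comparing these 2 contrasts directly, the J17a contrast exceeded the J27a one by 0.42 on the log2 scale (95% interval 0.09 to 0.76, unadjusted p = 0.0165, edgeR adjusted p = 0.628), which did not pass. Endothelial marker transcripts summed to 348 to 417 CPM in the J27a libraries, the widest range of any group, and to 360 to 409 CPM in Wild type. In bulk tissue, fewer cells of a type and less RNA per cell cannot be told apart.

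Dio2, the type 2 deiodinase that makes T3 from T4 in astrocytes and tanycytes, showed the clearest order of groups. The gene lies at chr12:90724552-90738438 (mm10, minus strand) and shares 100 exonic bases, 1.72% of its total, with the antisense lncRNA gene Gm26512. Its CPM values were 85.1, 75.9 and 66.7 in J1 lf/lf, 70.5 and 80.2 in J17b, and 74.3, 79.9 and 74.9 in J27b. They were 83.9, 91.3 and 107 in J2 lf/lf, 98.1, 105 and 89.3 in J17a, 99.8, 89.1 and 99.2 in J27a, and 90.7, 98.0 and 88.9 in Wild type. Every library of J1 lf/lf, J17b and J27b was below every Wild type library, and J2 lf/lf, J17a and J27a overlapped Wild type. The group order by mean was J17a (97.3), J27a (96.1), J2 lf/lf (94.1), Wild type (92.5), J27b (76.4), J1 lf/lf (75.9) and J17b (75.4 CPM), so that neighbours differed by less than their SDs except between Wild type and J27b.

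The 3 lower groups stood at a similar distance from Wild type. J1 lf/lf averaged 75.9 ± 9.22 CPM, against 92.5 ± 4.79 CPM in Wild type (SD, n = 3 each), a log2 difference of -0.29 (95% interval -0.48 to -0.09, unadjusted p = 0.00604, edgeR adjusted p = 0.815). J27b averaged 76.4 ± 3.07 CPM (SD, n = 3), with a log2 difference of -0.28 from Wild type (95% interval -0.47 to -0.08, unadjusted p = 0.00737, edgeR adjusted p = 0.703). J17b averaged 75.4 ± 6.85 CPM (SD, n = 2), with a log2 difference of -0.30 from Wild type (95% interval -0.52 to -0.08, unadjusted p = 0.0107, edgeR adjusted p = 0.677). These comparisons share the Wild type libraries, so they are not independent. Without the 3 libraries richest in pituitary transcripts, the J1 lf/lf difference was -0.16, the J17b difference -0.25 and the J27b difference -0.23 on the log2 scale.

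**Figure D2:**
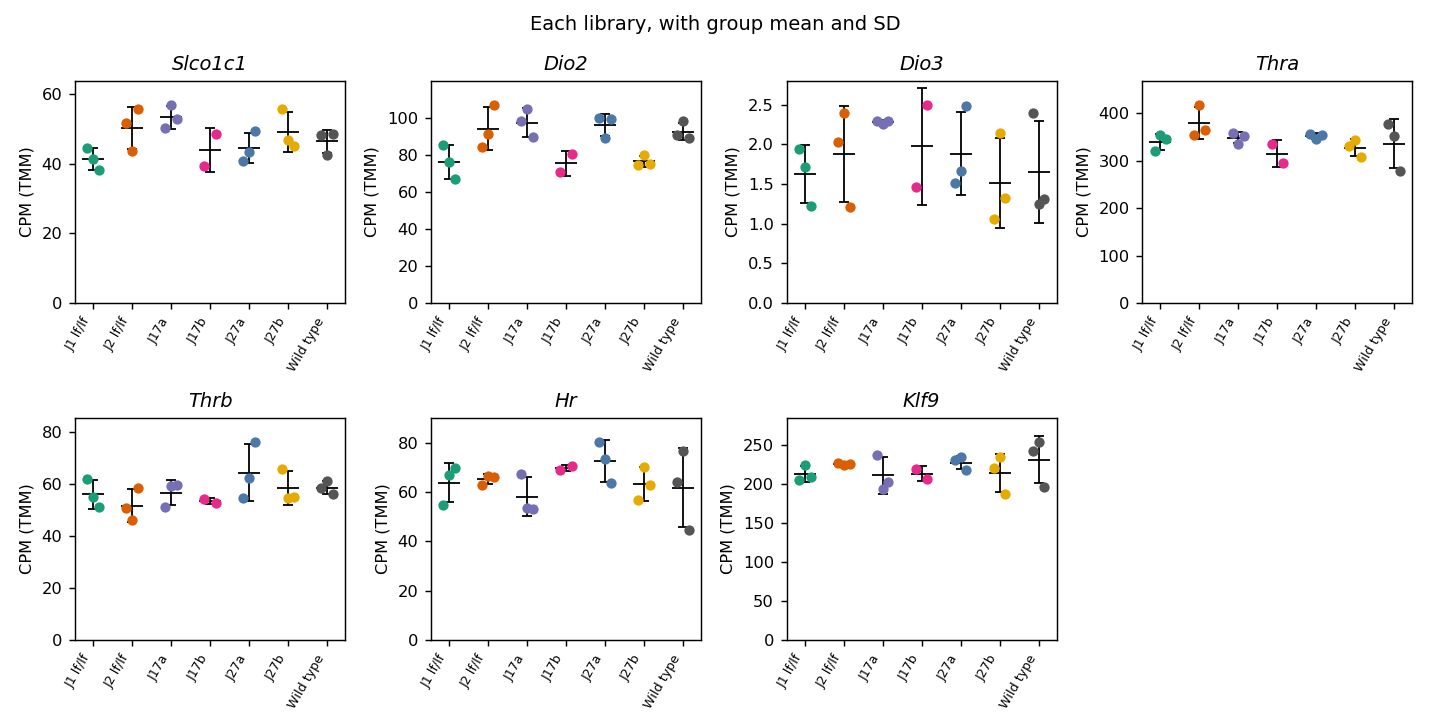
CPM (TMM scaled) of each member by group; points are libraries, horizontal bars the group mean and whiskers the SD. Dio2 lies lower in J1 lf/lf, J17b and J27b than in Wild type without overlap, and no member passed the edgeR threshold.

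Within each gene the 7a line had more Dio2 than the 7b line. J17a averaged 97.3 ± 7.65 CPM (SD, n = 3) and J17b 75.4 ± 6.85 CPM (SD, n = 2), a log2 difference of 0.37 (SE 0.11, 95% interval 0.15 to 0.59, unadjusted p = 0.0022, edgeR adjusted p = 0.634). J27a averaged 96.1 ± 6.01 CPM and J27b 76.4 ± 3.07 CPM (SD, n = 3 each), a log2 difference of 0.33 (SE 0.09, 95% interval 0.14 to 0.53, unadjusted p = 0.00194, edgeR adjusted p = 0.553). The libraries did not overlap in either pair, and these contrasts share no library. The difference between the 2 differences was 0.04 on the log2 scale (95% interval -0.26 to 0.33, edgeR adjusted p = 0.987). A fit of J27a and J27b alone gave an adjusted p of 0.0142 for Dio2, with 0.824% of genes called, the one call for a member among single contrasts and alternatives.

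Taking both genes together, a contrast chosen after these values were seen, the 6 libraries of the 7a lines held 89.1 to 105 CPM of Dio2 (median 98.7), against 70.5 to 80.2 CPM (median 74.9) in the 5 libraries of the 7b lines. The 7a lines thus had 127% of the level of the 7b lines, a log2 difference of 0.35 (SE 0.07, 95% interval 0.20 to 0.50). Dio2 ranked number 3 of 16063 genes by p in that contrast (unadjusted p = 6.46e-05, edgeR adjusted p = 0.331). In it edgeR called 0% of genes, and 0.635% of all genes (102) had libraries of the 7a and 7b lines that did not overlap. DESeq2 gave an adjusted p of 0.0196, with 0.0498% of genes called, and a fit of these 4 groups alone 0.0236, with 0.0379% called, so the call depends on the model. All libraries but J17a replicate 1 in this contrast have title numbers above 10, and without it the log2 difference was also 0.35. Within the set above 10, Rn45s still ran from 17321 to 54698 CPM, and its part in the Dio2 values was not tested.

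The 7a and 7b lines were also set against J1 lf/lf or J2 lf/lf, with no test between the genes. J17a was above J1 lf/lf by 0.36 on the log2 scale (unadjusted p = 0.000969, edgeR adjusted p = 0.334), while J17b and J1 lf/lf differed by -0.01 (95% interval -0.23 to 0.21). J27b was below J2 lf/lf by a log2 difference of -0.30 (unadjusted p = 0.0041, edgeR adjusted p = 0.729), while J27a and J2 lf/lf differed by 0.03 (95% interval -0.16 to 0.22). Over all 7 groups at once, Dio2 had an unadjusted p of 0.000587 and an adjusted p of 0.178 (edgeR), rank 53. DESeq2 called it in that test, with an adjusted p of 0.00338, among 1.44% of all genes.

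Markers of the cells that make Dio2 were set beside it. Astrocyte markers summed to 5586 to 6750 CPM in J17a, against 6180 to 6281 CPM in J17b, and to 6026 to 6323 CPM in J27a, against 5836 to 6093 CPM in J27b. The median log2 difference of the 9 astrocyte markers in J17a against J17b was 0.00, and none of the 9 was called. The sums overlapped in both pairs. J27a had the higher mean of its pair (6185 against 5961 CPM), and J17a the lower of its pair (6165 against 6230.5 CPM). J1 lf/lf had the lowest mean of all groups (5591 CPM, against 5905 CPM in Wild type). Its libraries (5469 to 5774 CPM) overlapped Wild type (5610 to 6104 CPM). J2 lf/lf, whose Dio2 overlapped Wild type, also had a lower mean (5758 CPM). J17b and J27b, whose Dio2 lay below Wild type, had higher means. Tanycyte markers summed to 72.2 to 86.2 CPM in J17a, against 73.9 to 74.3 CPM in J17b, and to 74.1 to 78.6 CPM in J27a, against 78.9 to 95.3 CPM in J27b. Most of that sum is Col25a1 (median 70.4 CPM), against 0.123 CPM for Rax, which was at 0 in 2 libraries. Tanycyte sums were below Wild type (83.7 to 104.8 CPM) in J1 lf/lf (73.5 to 79.1 CPM), J17b and J27a.

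Neuronal markers moved with Dio2 in some groups and not in others. They summed to 4980 to 5320 CPM in J27a, against 4864 to 4876 CPM in J27b, without overlap, and to 4738 to 5168 CPM in J17a, against 4534 to 4804 CPM in J17b, with overlap. Both 7b lines lay below Wild type (4989 to 5297 CPM), and J1 lf/lf (4695 to 5099 CPM) overlapped it. J2 lf/lf, whose Dio2 overlapped Wild type, had a neuronal sum of 4620 to 5069 CPM. Its mean of 4814 CPM lay below those of J27b (4868 CPM) and J1 lf/lf (4895 CPM), and J17a had 4901 CPM. Forebrain glutamatergic markers summed to 3757 to 4246 CPM in J27a, against 3511 to 3715 CPM in J27b, without overlap, and to 3387 to 3587 CPM in J17a, against 2869 to 3455 CPM in J17b, with overlap. The Pearson r of Dio2 was taken over the 20 libraries, which share tissue and normalization. It was 0.52 with the neuronal sum, 0.38 with the forebrain sum, 0.29 with the astrocyte sum and 0.08 with the tanycyte sum. With the sums of the other marker lists it ran from -0.40 (choroid plexus) to 0.28 (microglia). The part of these cells in the Dio2 values was not tested.

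Dio3, the type 3 deiodinase that inactivates T4 and T3, was near the limit of this depth with 28 to 70 counts per library. The gene lies at chr12:110279068-110281097 (mm10, plus strand). Group means were 1.63 ± 0.37 CPM in J1 lf/lf, 1.88 ± 0.61 in J2 lf/lf, 2.28 ± 0.02 in J17a, 1.88 ± 0.52 in J27a, 1.51 ± 0.57 in J27b and 1.65 ± 0.64 in Wild type (SD, n = 3 each), and 1.98 ± 0.74 in J17b (SD, n = 2). All groups overlapped Wild type, and J17a lay above J1 lf/lf without overlap. Counting error alone gives a coefficient of variation of 14.3% at its mean of 49.0 counts, against the 27.5% observed over all libraries. The J17a difference from Wild type was 0.47 on the log2 scale with a 95% interval of -0.22 to 1.16 (edgeR adjusted p = 0.993), so differences of the size seen for Dio2 were not detectable for Dio3.

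Thra encodes the receptor TR alpha, the main nuclear T3 receptor of brain, and lies at chr11:98740638-98769006 (mm10, plus strand). Its CPM values were 320, 354 and 345 in J1 lf/lf, 355, 418 and 365 in J2 lf/lf, 360, 336 and 352 in J17a, and 335 and 295 in J17b. They were 356, 346 and 355 in J27a, 332, 344 and 308 in J27b, and 377, 353 and 278 in Wild type. Wild type replicate 3 was the lowest of all 20 libraries, so that every group overlapped Wild type. Both 7a lines lay above their 7b lines without overlap, with log2 differences of 0.15 for J17a against J17b (95% interval -0.06 to 0.36, edgeR adjusted p = 0.894) and 0.10 for J27a against J27b (95% interval -0.08 to 0.29, edgeR adjusted p = 0.976). J27b differed from J2 lf/lf by -0.21 on the log2 scale (unadjusted p = 0.0282, edgeR adjusted p = 0.991). The last exons of Thra and of Nr1d1, on the opposite strand, share 263 exonic bases, 5.7% of the Thra total, and reads there cannot be assigned without strand.

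Thrb encodes TR beta, the receptor that also mediates feedback on the pituitary, and lies at chr14:17660261-18038090 (mm10, plus strand). J27a held 54.6, 62.4 and 76.5 CPM, against 50.8, 46.0 and 58.5 CPM in J2 lf/lf, which overlapped. The log2 difference was 0.31 (95% interval 0.08 to 0.55, unadjusted p = 0.0107, edgeR adjusted p = 0.587), and the highest value belongs to J27a replicate 3, one of the libraries with pituitary transcripts. Without the 3 such libraries it was 0.17. Against Wild type (56.4 to 61.3 CPM) the 6 lines ran from a log2 difference of -0.18 in J2 lf/lf to 0.13 in J27a, and J17b (52.8 and 54.3 CPM) lay below Wild type without overlap.

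Hr encodes hairless, a corepressor that is itself a direct T3 target in rodent brain, and lies at chr14:70552212-70573548 (mm10, plus strand). Its CPM values were 67.3, 53.6 and 53.3 in J17a, against 68.9 and 70.8 in J17b, which did not overlap, with the 7a line lower. They were 80.6, 73.4 and 63.7 in J27a, against 56.8, 70.4 and 63.0 in J27b, which overlapped. The log2 differences were -0.27 (95% interval -0.61 to 0.08) and 0.20 (95% interval -0.12 to 0.51), and the difference between them was -0.46 (95% interval -0.93 to 0.01, unadjusted p = 0.0525, edgeR adjusted p = 0.736). Wild type libraries spanned 44.6 to 76.8 CPM, more than any line, and replicate 3 was again the lowest of all 20.

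Klf9, a Krüppel-like transcription factor induced by T3 and by glucocorticoids, was the steadiest member, with a coefficient of variation of 7.97% over the 20 libraries. The gene lies at chr19:23141226-23168134 (mm10, plus strand). Group means were 213 ± 10.1 CPM in J1 lf/lf, 226 ± 1.08 in J2 lf/lf, 211 ± 23.3 in J17a, 228 ± 8.82 in J27a, 215 ± 24.5 in J27b and 232 ± 30.6 in Wild type (SD, n = 3 each), and 213 ± 9.40 in J17b (SD, n = 2). All 6 lines had a lower mean than Wild type and overlapped it, with log2 differences of -0.13 to -0.02 and 95% intervals within -0.34 and 0.17. Larger changes of Klf9 lie outside the interval of every line.

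**Figure D3:**
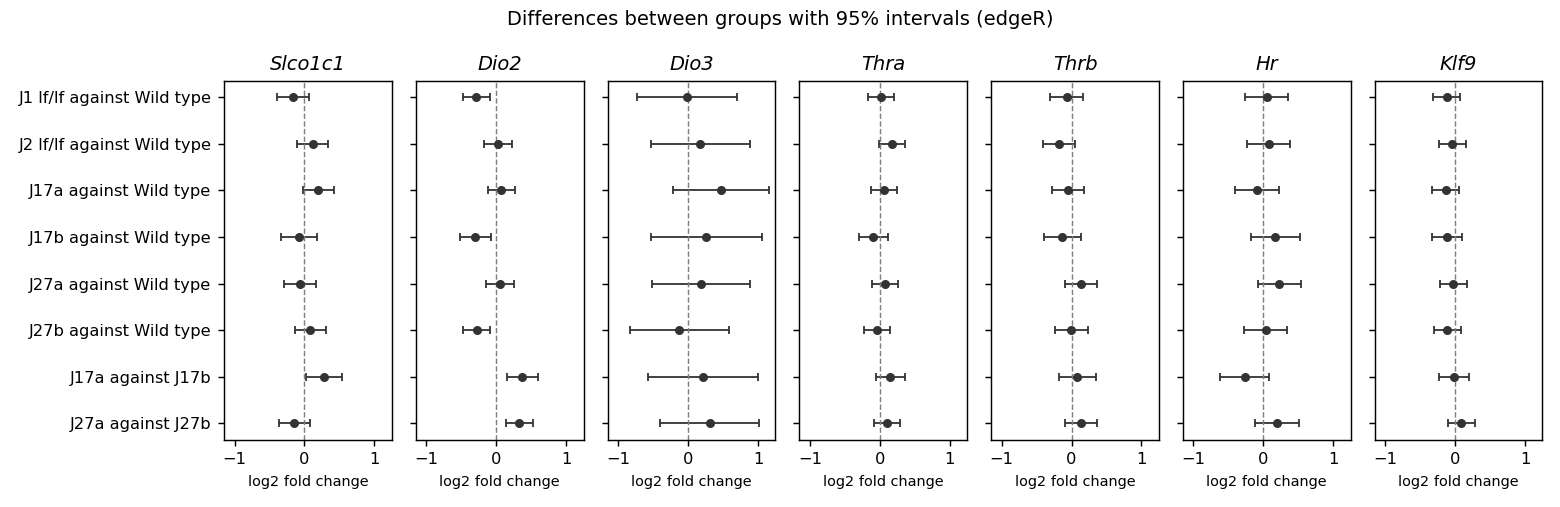
Log2 fold changes of each member, the 6 lines against Wild type and each 7a line against its 7b line; points are edgeR estimates and bars 95% intervals, and the dashed line marks 0. The Dio2 intervals leave out 0 in 5 of the 8 comparisons, and Dio3 has the widest intervals.

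Members whose libraries did not overlap were counted per comparison, beside the share of all genes. In J17a against J17b, 4 of 7 members (Slco1c1, Dio2, Thra and Hr) had libraries that did not overlap, against 19.8% of all genes. In J27a against J27b these were 2 (Dio2 and Thra), against 17.3%. In J17a against J1 lf/lf they were 3 (Slco1c1, Dio2 and Dio3), against 11.9%, and in J27b against J2 lf/lf 2 (Dio2 and Thra), against 16.4%. Against Wild type there were 2 in J17b (Dio2 and Thrb; 15.4% of all genes) and 1 each in J1 lf/lf (Dio2; 8.3%), J17a (Slco1c1; 6.53%) and J27b (Dio2; 11.9%). There were 0 in J2 lf/lf (10.4%) and J27a (8.01%) against Wild type, in J17b against J1 lf/lf (19%) and in J27a against J2 lf/lf (16.7%).

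The members varied together in part. Over the 20 libraries and 21 pairs, described with no test, the 2 target genes Hr and Klf9 had a Pearson r of 0.64 (Spearman 0.64), and 0.75 for deviations from the group means. Thra and Klf9 had r = 0.61 (Spearman 0.64) and 0.71 for the deviations. Hr and Slco1c1 ran against each other, with r = -0.54 (Spearman -0.64) and -0.56. Without Wild type replicate 3 these values were 0.60, 0.55 and -0.63. Dio2 went with neither target, with r = -0.03 for Hr and 0.24 for Klf9. Its highest r with a member was 0.46 for Slco1c1 (Spearman 0.37), and Thra had 0.31 (Spearman 0.58). Thrb and Slco1c1 had r = 0.31 and 0.73 for the deviations. All libraries share their tissue and normalization. Nrgn, a cortical T3-responsive gene, ran from 347.13 CPM in Wild type replicate 3 to 959.186 CPM in Wild type replicate 1, and its part in these correlations was not tested.

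**Figure D4:**
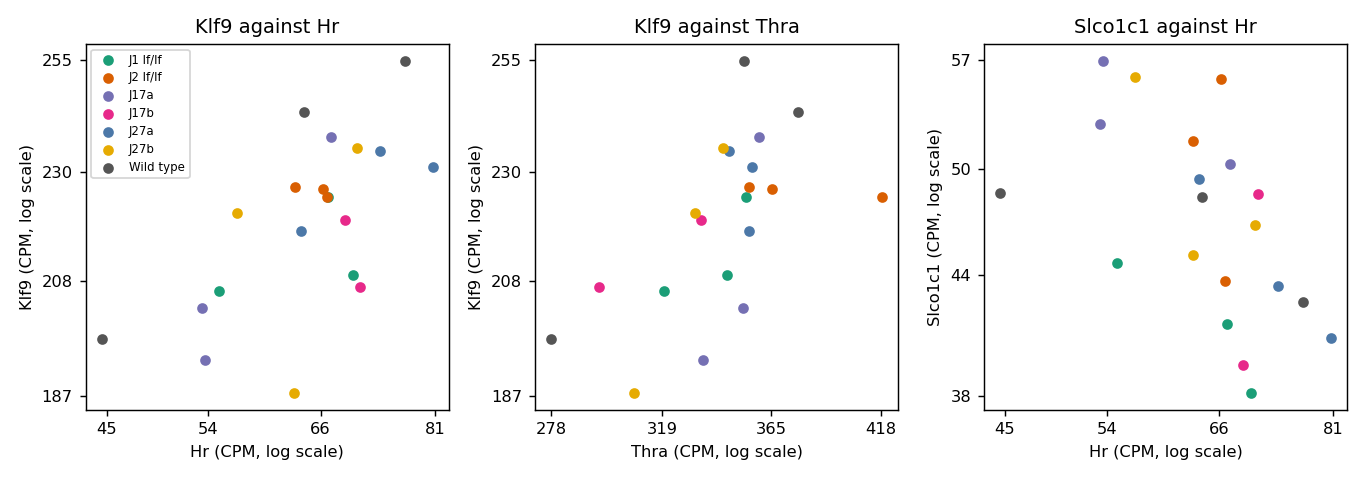
CPM (log axes) of Klf9 against Hr, Klf9 against Thra and Slco1c1 against Hr in the 20 libraries, coloured by group. Klf9 is higher where Hr (r = 0.64) and Thra (r = 0.61) are higher, and Slco1c1 is lower where Hr is higher (r = -0.54).

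Among 12999 other genes with a mean log2 CPM of at least 1, those most like Dio2 over the 20 libraries were Homer1 (r = 0.84), which encodes a scaffold of excitatory synapses, Zfp189 (0.83) and Ubtd2 (0.82). Homer1 had 168 to 225 CPM in the 7a lines, against 141 to 164 CPM in the 7b lines, without overlap, as did 0.635% of all genes. Homer1 was picked for its likeness to Dio2, which itself separates these lines, so its separation is no independent result. Thra was most like Psd (0.91), Plekhg5 (0.90) and Mgat4b (0.90), and Thrb most like Pde1a (0.82), Etl4 (0.79) and Pgr (0.78). Hr was most like Pcdhgc3 (0.89), H2-D1 (0.86) and 5031425E22Rik (0.84), and Klf9 most like Mkl1 (0.86), Kbtbd11 (0.84) and Oaf (0.84). Slco1c1 was most like Chdh (0.84), Osbpl11 (0.76) and Tmem165 (0.74), and Dio3 most like Zc3h11a (0.79), Gigyf2 (0.74) and Lcor (0.69). Each is the top of a long ranking made in the same libraries.

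The wider pathway was described from lists of transporters, receptor partners, selenoprotein factors, T3-responsive genes, the thyrotropic axis, KLF genes, glucocorticoid targets and clock genes. Of 112 listed genes 108 were tested, and edgeR called none of them in any contrast or over the 7 groups, while DESeq2 called 13 of them (12%) over the 7 groups, against 231 of all genes (1.44%). They were Camk4 and Reln of the genes that T3 raises, Klf10 of the KLF genes, Per3 and Arntl of the clock, and the glucocorticoid targets Sgk1, Zbtb16, Mt1, Mt2, Errfi1, Per1, Nfkbia and Ddit4. Their DESeq2 adjusted p-values ran from 1.71e-07 for Sgk1 to 0.0424 for Arntl. The lists were chosen with earlier results of these data known, so comparing these shares is no test of the pathway. Among 24 genes that T3 raises in brain, the median log2 difference from Wild type lay between -0.06 and 0.05 in the 6 lines, beside medians of 0.00 for all genes. At an unadjusted p under 0.05 there were 2 of the 24 in J1 lf/lf, 4 in J2 lf/lf, 1 in J17a, 3 in J17b, 2 in J27a and 6 in J27b, against 5.04%, 7.94%, 4.39%, 5.85%, 4.84% and 6.94% of all genes. Among 6 tested genes that T3 lowers, the medians lay between -0.10 and 0.09. The 16 receptor partners, which include the RXR receptors and the NCoR corepressors, had medians between -0.04 and 0.01.

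Other genes of hormone handling were measured beside the members. Crym, a cytosolic T3-binding protein, ran from 37.8 to 62.7 CPM in the 6 lines, against 33.9 to 74.5 CPM in Wild type. Ttr, the T4 carrier made by choroid plexus, ran from 292 to 1690 CPM, and the choroid plexus markers beside it from 54.2 to 160 CPM in sum. Dio1, the deiodinase of liver and kidney, was at 0 in 13 libraries. The 9 tested genes of the transporter list, most of them transporters and binding proteins, had median log2 differences from Wild type between 0.03 and 0.15.

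The hypothalamic and pituitary genes of the axis rest on which parts were sampled. Trh, the releasing hormone that starts the axis, had 3.75, 15.2 and 7.71 CPM in J1 lf/lf, against 5.90, 1.80 and 3.89 CPM in Wild type, which overlapped. The log2 difference was 1.23 (SE 0.54, unadjusted p = 0.0392, edgeR adjusted p = 0.944), and 0.58 without J1 lf/lf replicate 2. Trh lay above all Wild type libraries in J17b (6.75 and 8.10 CPM) and J27b (6.36 to 8.41 CPM). Of all genes, 15.4% did not overlap Wild type in J17b and 11.9% in J27b. Both lines have title numbers above 10 and Wild type does not, so line and that split cannot be told apart. Tshb, the beta chain of thyrotropin, was at 0 in 10 libraries and reached 41.46 TPM in J1 lf/lf replicate 3, the library with the most pituitary transcripts. Group differences in Tshb and Cga are therefore not given.

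Nr1d1, the clock repressor whose last exon overlaps Thra, had 115 to 148 CPM (median 134) in the 17 libraries of the 6 lines, against 151, 156 and 157 CPM in Wild type. Every line library was below every Wild type library. The share of all genes that separate in this way over the 6 lines was not computed. Per line, 6.53% (J17a) to 15.4% (J17b) of all genes did not overlap Wild type. The log2 differences from Wild type were -0.22 in J1 lf/lf, -0.10 in J2 lf/lf, -0.28 in J17a, -0.24 in J17b, -0.22 in J27a and -0.23 in J27b, each against the same Wild type libraries. Their edgeR adjusted p-values were 0.815, 0.704, 0.993, 0.672, 0.959 and 0.703, so none passed. Thra did not follow this order, with means of 315 to 380 CPM in the lines and 336 CPM in Wild type.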

How the data were processed

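Brain RNA was made into poly(A) libraries and read from both ends for 150 bp, per the labels. The estimated counts and the TPM values the authors deposited came from RSEM after cutadapt on mm10, per the submitters' processing notes. Versions, annotation and strand use are not given in the sources considered here. Estimated counts (4.11% not whole) were rounded and tested by robust quasi-likelihood fits in edgeR 4.0.16 under R 4.3.3, with all 20 libraries and a mean per group. The filterByExpr filter kept 16063 genes, and TMM factors lay between 0.975 and 1.03. The 13 contrasts and the test over 7 groups were two-sided, with Benjamini-Hochberg adjustment over all tested genes and a threshold of 0.05. CPM uses TMM factors and compares 1 gene between libraries. TPM compares genes.

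Alternatives were DESeq2 1.42.0, its size factors, no filter, only the groups of a contrast, a replicate block, limma 3.58.1 on log2(TPM + 1) and log2(TPM + 0.1), Rn45s removed, and leave-one-out fits of every library. The data had been seen when 2 more were added: the contrast of both 7a against both 7b lines, and a fit without the 3 libraries highest in pituitary transcripts. The members and lists were chosen with earlier results of these data known. Named genes are the members, the 3 genes most correlated with each, called list members, list members with the highest or lowest fold change where they bear on a result, and Tshb, Cga, Trh, Ttr, Crym, Nr1d1, Mapk8 and Mapk9. A further gene named by that rule is not reported here. Other list genes were named after their values were seen. Replicates of a group differed by more than sampling noise (chi-square per gene of 5.56 to 65.3 in 19 pairs), so each library counted once. Positions are from GENCODE (mm10) and windows from RefSeq (GRCm38.p6). The scripts were tested on simulated data.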

Additional observations from a re-analysis of the deposited data

How the results depend on the processing

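No member was called in any single contrast under DESeq2, DESeq2 size factors, no count filter, limma on TPM, Rn45s left out, or any library left out. The number of members called went to 1, each time Dio2, with only the groups of the contrast for J27a against J27b (1), with DESeq2 (1) and only these groups (1) for both 7a against both 7b lines, and with DESeq2 (1) over the 7 groups. Leaving out a library gave 0 to 1 over the 7 groups, and the 1 came without Wild type replicate 3 (Dio2 adjusted p = 0.0455, 0.71% of all genes called). For both 7a against both 7b lines, leaving out a library gave log2 differences of 0.31 to 0.40 and adjusted p-values of 0.0603 to 0.804 for Dio2. The cause of these changes was not tested. Of 3038 member values over 29 settings, 101 changed sign, none of them called. The 3038 include values of the test over the 7 groups, which have no sign.

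With a replicate block, 0 members were called, and Dio2 differed by 0.36 between both 7a and both 7b lines (adjusted p = 0.417). The numbers do not pair the libraries: deviations of same-numbered libraries had a median r of -0.004 over 57 pairs and exceeded 0.1 in 6. Depth limits Dio3 most.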

Other observations

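Glucocorticoids also induce Klf9, and 13 genes that respond to them were listed beside it, none of which passed the edgeR threshold; those DESeq2 called over the 7 groups are named above. Plin4, a lipid droplet coat protein, differed by -1.21 on the log2 scale in J17a against J17b (unadjusted p = 0.00112, edgeR adjusted p = 0.572). In the same contrast the metallothionein genes Mt1 and Mt2 differed by -0.56 and -0.64 (edgeR adjusted p = 0.475 and 0.587). Sgk1, a kinase induced by glucocorticoids, differed by -0.68 in J1 lf/lf against Wild type (unadjusted p = 0.00214, edgeR adjusted p = 0.624) and by 0.48 in J2 lf/lf against Wild type (edgeR adjusted p = 0.618). These genes were picked after their values were seen.

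The clock genes Per2 and Per3 differed in J27a against J27b by 0.39 and 0.36 on the log2 scale (unadjusted p = 0.000621 and 0.000346, edgeR adjusted p = 0.553 for both). In J17a against J17b, Per3 differed by -0.27 (edgeR adjusted p = 0.729). The difference of these differences for Per3 was -0.63 (SE 0.13, unadjusted p = 6.79e-05, edgeR adjusted p = 0.234). The labels give no time of day.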
